A study of Caenorhabditis elegans with 2 samples.

Results

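The 50 genes described here encode nuclear subunits of the mitochondrial respiratory chain and of ATP synthase in Caenorhabditis elegans, together with factors that assemble cytochrome c oxidase. They were taken by name from the 19973 nuclear protein-coding genes of the WBcel235 annotation, as every gene whose name starts with nuo-, nduf-, gas-, sdha-, sdhb-, sdhc-, sdhd-, isp-, ucr-, cyc-, cox-, atp-, asb- or asg-. The name rule gave 13 genes of complex I, 4 of complex II, 7 of complex III, 2 cytochrome c genes, 7 subunit genes of complex IV, 8 assembly genes of complex IV (cox- names numbered from 10) and 9 ATP synthase genes. Measured values played no part in the rule, although the genes and lists were chosen with earlier results of these data known.

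ZIM-3, a zinc finger protein of meiotic pairing centres, was mapped by chromatin immunoprecipitation and sequencing (ChIP-seq) in whole young adults. The strain was OP581, genotype unc-119(tm4063) III; wgIs581, and its transgene expresses ZIM-3 with GFP-FLAG at the C-terminus, precipitated through GFP. Animals of both sexes were pooled at 54.5 h after synchronization at the starved L1 larva, in 2 biological replicates that carry the same transgene. All samples belong to this 1 group, so there was no comparison between conditions, and no untagged or control sample was analysed here.

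The respiratory chain passes electrons from NADH and succinate through complexes I, II and III, the mobile carrier cytochrome c and complex IV to oxygen, and pumps protons across the inner mitochondrial membrane. ATP synthase uses the returning protons to make ATP. Most subunits are encoded in the nucleus and imported, a smaller number by the mitochondrial chromosome. Respiration affects developmental rate and lifespan in C. elegans, where mutants of isp-1, gas-1 and nuo-6 have altered respiration.

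Of the 50 genes, 10 had a ZIM-3-GFP peak that the authors listed as reproducible, with its summit within 1 kb of the gene start. The sequence around 6 of these summits is shown because they lie in different settings: upstream of cox-5A with no other gene near, inside non-coding genes at cox-6C, cox-6A and nduf-2.2, beside a microRNA gene at nduf-9, and between divergent genes at atp-5. Each run is 101 bases centred on the pooled summit, read from the RefSeq WBcel235 genome 5′ to 3′ on the strand of the named gene. Capitals mark searched letters on either strand. The GAGAGA repeat, the TATAA box letters, the E-box CACGTG and the letters GTTCGA were searched, and also GTTCGANTC, which was added after the summits were seen and contains the previous one.
cox-6C, IV:126252-126352, plus strand: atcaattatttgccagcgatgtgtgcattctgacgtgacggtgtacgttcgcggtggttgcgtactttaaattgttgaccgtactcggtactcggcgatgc
cox-6A, III:5080847-5080947, plus strand: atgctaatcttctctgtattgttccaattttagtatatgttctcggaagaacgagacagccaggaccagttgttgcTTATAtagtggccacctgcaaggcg
cox-5A, III:12905171-12905271, plus strand: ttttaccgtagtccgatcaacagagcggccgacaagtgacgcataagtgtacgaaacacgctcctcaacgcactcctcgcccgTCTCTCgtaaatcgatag
nduf-9, III:3249215-3249315, minus strand: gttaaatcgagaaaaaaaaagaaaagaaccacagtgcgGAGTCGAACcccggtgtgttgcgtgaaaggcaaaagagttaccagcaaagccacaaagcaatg
nduf-2.2, III:6464356-6464456, plus strand: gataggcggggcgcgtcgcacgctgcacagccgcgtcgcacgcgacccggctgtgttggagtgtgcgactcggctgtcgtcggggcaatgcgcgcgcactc
atp-5, V:11124079-11124179, minus strand: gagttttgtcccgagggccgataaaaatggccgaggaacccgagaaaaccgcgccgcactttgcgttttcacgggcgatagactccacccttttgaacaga

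Each set of searched letters was found in at most 1 of the 10 windows. GAGAGA was found in 1 of the 10 windows of the respiratory genes (cox-5A) and in 13.1% of the 906 windows of all reproducible peaks. TATAA was found in 1 window (cox-6A) and in 13.1% of all windows. The E-box letters CACGTG were in none of the 10 and in 3.64% of all windows. The GTTCGA letters were in 1 window (nduf-9) and in 15.1% of all windows. In promoters of 300 bases, from 250 before to 50 after the start, GAGAGA was present at 12 of the 50 genes and at 21.8% of all protein-coding genes. TATAA was present at 23 of the 50 and 57.8% of all, the letters GTTCGA at 1 of the 50 and 9.85% of all, and the E-box letters at none and 5.82%. The base composition of the 10 windows ranged from 43.6% GC at cox-6A to 72.3% at nduf-2.2, with a median of 52.0%. All 906 windows had a median of 47.5% GC, and the promoters of the 50 genes one of 35.2% against 34.3% for all promoters.

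Each gene was scored by the highest region with a summit within 1 kb of its start, where the start is the 5′ end of the gene record. The signal of a region is the authors' own value, on a scale that differs between the list called on pooled reads and the lists of each replicate, so ranks within a list (1 is the highest of 30000) are given beside it. The reproducible peaks are the authors' list from the irreproducible discovery rate (IDR) procedure, and these 906 peaks were also the 906 highest regions of the pooled list, down to a signal of 140.7. Read counts were not used here, so depth is unknown for both libraries, and pooled values carry no replicate error. In whole animals, strong occupancy in few cells and weak occupancy in many cells cannot be told apart.

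IDR summits were found at 10 of the 50 genes, or 20.0%, where 2.5% of all 19973 protein-coding genes had one. The 10 were, by signal, cox-6C, cox-6A, cox-5A then cox-5B of complex IV, nduf-9 and nduf-2.2 of complex I, cyc-1 of complex III, and atp-1, atp-5 and atp-4 of ATP synthase. Complex II, the cytochrome c genes and the assembly factors of complex IV had none. In replicate 2 alone, the 906 highest regions gave 5 of the 50, where 2.45% of all genes had one. Without summits inside or within 50 bp of non-coding genes, a choice made after seeing the data, the IDR list gave 6 of the 50 and 1.84% of all genes. A pooled region of any height was present at 38 genes (76.0%), beside 47.6% of all genes. The median signal over the 38 was 84.7, with a range of 52.4 to 315.7, and that over all genes with a region was 71.4. Pooled regions among the highest 5000, a limit chosen after the values were seen, were present at 18 of the 50 genes and at 11.0% of all genes.

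**Figure D1:**
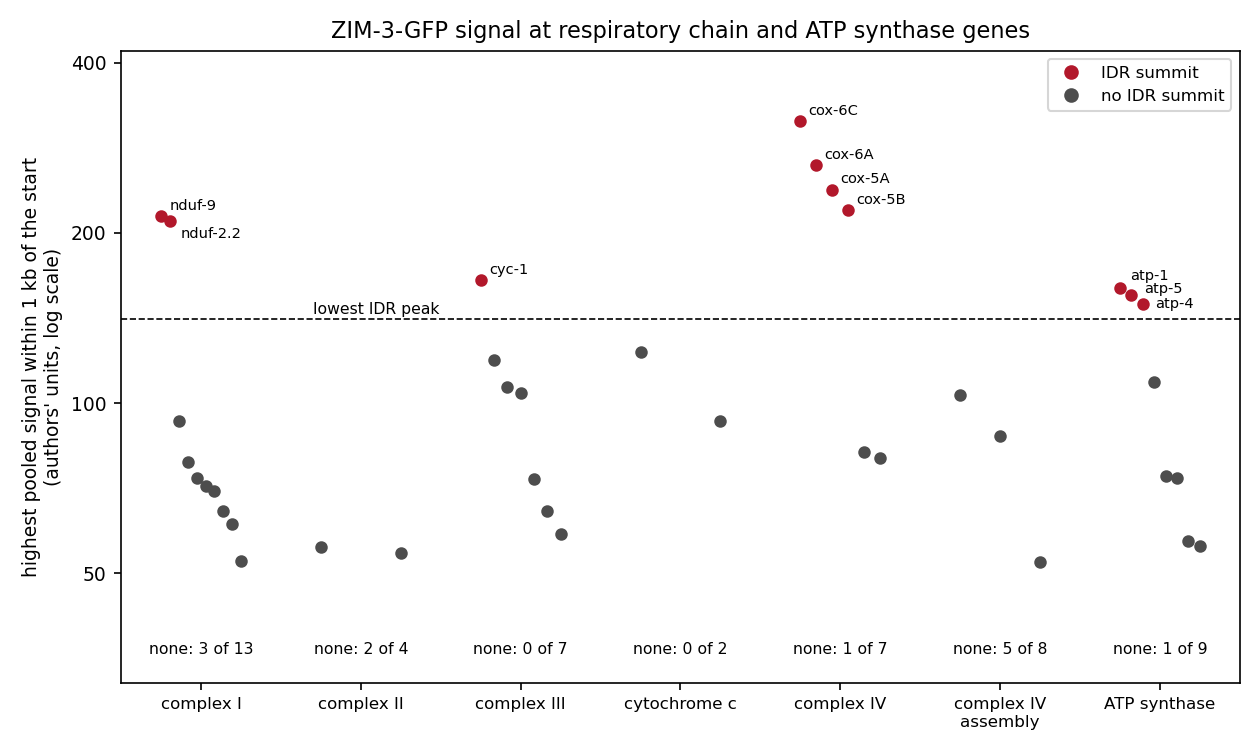
Highest pooled signal (log scale, authors' units) within 1 kb of the start of each gene, grouped by complex; each point is 1 gene, red where the summit is an IDR peak, and the dashed line is the lowest IDR peak at 140.7. The 4 highest points are complex IV subunit genes, and the numbers below give the genes of each group with no region.

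Complex IV, cytochrome c oxidase, reduces oxygen at the end of the chain, and its nuclear genes held the 4 highest pooled signals of the 50. Of its 7 subunit genes 4 had an IDR summit (57.1%), and the other structural genes of the chain and ATP synthase had 6 among 35. Without summits inside or within 50 bp of non-coding genes, complex IV had 2 of 7, since cox-6C and cox-6A were left out. Under that filter ATP synthase kept 3 of 9 genes, complex III 1 of 7 and complex I 0 of 13. The median pooled signal was 229.1 over the 6 complex IV genes with a region and 74.3 over the 29 other structural genes with one. A difference between the complexes was not tested, since the genes share the same libraries.

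cox-6C, which encodes subunit 6C (WBGene00017926, IV 126731 to 127640, plus strand), had a pooled signal of 315.7 at rank 71, with 237.9 (rank 64) in replicate 1 and 82.2 (rank 95) in replicate 2. It was the highest of the 50 genes in all 3 lists. Its summit at IV 126302 lay 429 bp upstream, inside the exon of the non-coding RNA gene F29C4.9 (IV 126263 to 126391), and nearer to the start of the divergent gene grld-1, at 371 bp. In the 500 kb of chromosome IV densest in IDR peaks, 12 of 20 summits have a 12 bp repeat within 50 bp, and the nearest copy of that repeat was 897 bp from the cox-6C summit. That repeat was picked as the 12 bp sequence near the most summits there, and it has 1002 copies in the genome. No pooled summit of the 38 genes had a copy within 300 bp. The share over all pooled summits was not counted.

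cox-6A encodes subunit 6A (WBGene00006519, III 5081724 to 5082995, plus strand). Its pooled signal was 263.7 at rank 134, and the replicates gave 201.8 (rank 120) and 61.1 (rank 259). The summit lay 827 bp upstream at III 5080897, at the first bases of the snRNA gene F54D8.7, which spans III 5080798 to 5080898 on the minus strand. The TATAA letters in the printed window stand 25 bp before the start of that snRNA gene, and in 57.8% of all promoters the same letters occur. The annotation places F54D8.7 at 3 positions with 0 sequence differences between them. Within 500 bp of the other copies, on chromosome IV, the highest pooled signals were 113.2 (rank 2049) and 86.2 (rank 6348), both under the IDR floor. A tRNA, snoRNA or snRNA gene lay within 500 bp of the summit at 1 of the 10 genes, cox-6A, and at 23.4% of all protein-coding genes with an IDR summit.

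cox-5A, for subunit 5A (WBGene00012553, III 12905491 to 12906619, plus strand), stood alone in its surroundings. Its pooled signal was 238.6 at rank 179, with 185.6 (rank 161) and 56.1 (rank 349) in replicates 1 and 2. The summit at III 12905221 was 270 bp upstream, inside no annotated gene, and the next protein-coding start was that of flp-14, a neuropeptide gene, 5289 bp away.

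cox-5B, for subunit 5B (WBGene00000371, I 9788725 to 9790050, plus strand), had its summit closest to the start among the 7 upstream IDR summits, at 51 bp. The pooled signal was 219.6 at rank 229 and replicate 2 gave 69.7 at rank 160. In replicate 1 the region at the pooled summit had 146.3 (rank 326), and a slightly higher one of 147.6 (rank 319) lay 686 bp upstream of the start. The remaining subunit genes were lower. cox-4 had 82.0 (rank 7750) at a pooled summit 907 bp past the start. Its highest replicate regions lay elsewhere, with 57.7 in replicate 1 and 23.9 in replicate 2, at 9 and 460 bp upstream. Within 200 bp of the cox-4 pooled summit, replicate 1 had 136.4 (rank 398), beyond 1 kb of the start, and replicate 2 had 16.3 (rank 25896). cox-7C had 79.9 (rank 8541), with 61.2 and 16.1 in replicates 1 and 2.

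cox-6B had no region in any list near the start of its gene record, which spans III 2699663 to 2786859 because 1 of its 2 annotated transcript starts lies far upstream. From the other start, an IDR summit (signal 147.0, rank 787) was 734 bp away, 84 bp inside the neighbouring complex I gene nduc-2. cox-4 had an IDR summit just out of reach, with a signal of 175.8 at 1106 bp past its start, beyond the 3′ end of the gene.

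The assembly genes of complex IV insert haem and copper and place the core subunits. Of the 8, cox-17, cox-15 and cox-16 had a pooled region (37.5%, against 47.6% of all protein-coding genes). The signals were 103.2 (rank 3020), 87.4 (rank 5995) and 52.4 (rank 27864). cox-17, the copper chaperone gene, gave 83.7 and 18.3 in replicates 1 and 2. The 18.3 lay 405 bp upstream of the start, and within 200 bp of the pooled summit replicate 2 had 17.0 (rank 23858). cox-15, a gene of haem A synthesis, gave 69.1 and 17.7. The pooled regions of both genes were below the IDR floor. cox-11 (40.7) and cox-14 (53.3) had a region in replicate 1 only, cox-10 (19.7) in replicate 2 only, and cox-18 and cox-19 in none. An IDR peak of 145.6 lay 1639 bp upstream of cox-10 and 505 bp from the start of Y38E10A.22.

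Complex I, the NADH dehydrogenase, had 2 of 13 genes with an IDR summit. A pooled region was present at 10 (76.9%, against 47.6% of all protein-coding genes), at a median signal of 72.5. Both IDR summits lay more than 500 bp upstream of the genes and at or next to a non-coding gene. nduf-9, an accessory subunit gene (WBGene00021800, III 3241717 to 3248575, minus strand), had a pooled signal of 214.3 at rank 247 and 183.9 (rank 165) in replicate 1. Replicate 2 had no region within 1 kb of the nduf-9 start. Among the 906 IDR peaks, 12 (1.32%) lacked a replicate 2 summit within 200 bp and 0 lacked a replicate 1 summit. The call at nduf-9 thus had no listed replicate 2 region beside it.

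The nduf-9 summit at III 3249265, 690 bp upstream, was 5 bp outside the microRNA gene cel-mir-4936 (III 3249151 to 3249260, plus strand). The GTTCGANTC letters in the window occupy III 3249269 to 3249277, outside that gene. Such letters occur in 46.7% of the 612 annotated tRNA genes, in 5.96% of the IDR windows and in 0.556% of protein-coding promoters. The nearest annotated tRNA, snoRNA or snRNA gene was 53745 bp away. What the letters do at this position cannot be read from a match.

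nduf-2.2 and gas-1 are paralogs that encode a core subunit of complex I. nduf-2.2 (WBGene00006463, III 6465222 to 6467206, plus strand) had a pooled signal of 210.0 at rank 262, with 170.7 (rank 215) in replicate 1 and 42.1 (rank 1007) in replicate 2. Its summit at III 6464406 lay 816 bp upstream, inside the non-coding gene T26A5.10 (III 6464287 to 6464567), and nearer to the dynein light chain gene dlc-1, at 627 bp. gas-1, on chromosome X, had 69.9 (rank 13465), with 39.3 (rank 28847) and 31.0 (rank 3772). The nduf-2.2 value was above that of gas-1 in all 3 lists.

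Among the other complex I genes, the pooled signal ran from 52.6 at nuo-5 (rank 27644), the 75 kDa subunit gene, to 92.8 at nuo-4 (rank 4714). nuo-3 had 78.8 (rank 8953), nduf-7 73.6 (rank 11420), nduf-11 71.4 (rank 12575), nuo-1 64.5 (rank 17089) and nuo-2 61.1 (rank 19654). These 7 genes lay on both sides of the all-gene median of 71.4. nduf-5, nduf-6 and nuo-6 had no pooled region, and of these nduf-6 had one in replicate 2 (22.5, rank 11886).

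Complex II, succinate dehydrogenase, links the citrate cycle to the chain, and 2 of its 4 genes had a pooled region, at signals near the lower end of those of the 50 genes. sdha-1, a flavoprotein subunit gene, had 55.6 (rank 24590) in the pooled list, no region in replicate 1 and 23.1 (rank 10979) in replicate 2. Its paralog sdha-2 had no pooled region, although replicate 1 gave 49.4 (rank 16733) and replicate 2 gave 35.9 (rank 2012). sdhd-1, for a membrane anchor, had 54.4 (rank 25833) with 45.6 in replicate 1 and none in replicate 2. sdhb-1, for the iron-sulphur subunit, had none in any list. No gene of the complex was near the IDR floor.

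Complex III, which passes electrons from ubiquinol to cytochrome c, had a pooled region at all 7 genes, against 47.6% of all protein-coding genes. The median pooled signal was 104.0. cyc-1 encodes cytochrome c1 (WBGene00000869, I 8022674 to 8024422, minus strand). Its pooled signal was 165.2 at rank 549, with 124.2 (rank 545) in replicate 1 and 33.0 (rank 2893) in replicate 2, so its rank was much lower in replicate 2. The summit lay 399 bp past the start, inside the coding sequence of cyc-1. Next were ucr-2.3 at 119.2 (rank 1671), ucr-11 at 106.7 (rank 2625) and isp-1, the Rieske iron-sulphur protein gene, at 104.0 (rank 2924). Their replicate signals were 88.3 and 35.8 for ucr-2.3, 91.1 and 30.6 for ucr-11, and 81.5 and 30.4 for isp-1. All 3 stood below the floor of the IDR list and within the highest 5000 of both replicates. The isp-1 pooled summit, 727 bp upstream, lay in an intron of islo-1, 393 bp from the start of that gene. Within 200 bp of this summit replicate 2 had 29.2 (rank 4761), while its 30.4 lay 294 bp past the isp-1 start.

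Of the core protein paralogs of complex III, ucr-2.3 had 119.2, ucr-2.2 had 73.3 (rank 11592) and ucr-2.1 had 58.7 (rank 21740) in the pooled list. In replicate 1 the order was the same, at 88.3, 49.5 and 38.5. In replicate 2 ucr-2.3 had 35.8, ucr-2.1 had 24.2 and ucr-2.2 had no region. ucr-2.3 was thus highest in every list, and the order of the other pair differed between the replicates. ucr-1, the gene of the other core protein, had 64.3 (rank 17202).

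Cytochrome c itself is encoded by cyc-2.1 and cyc-2.2. cyc-2.1 had the highest pooled signal below the IDR floor, 123.3 at rank 1463, with 90.8 (rank 1671) and 37.0 (rank 1790) in the replicates. Its summit lay 259 bp past the start. An IDR peak of 252.2, at rank 156, lay 1071 bp upstream of the cyc-2.1 start and thus just out of reach, 157 bp from the start of Y17G9B.5. The same peak lay 305 bp upstream of rpl-20, the same-strand gene that ends 111 bp before cyc-2.1. cyc-2.2 had 93.1 (rank 4661), with 76.0 in replicate 1 and no region in replicate 2.

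ATP synthase had IDR summits at 3 of 9 genes, all within 300 bp of the start. Pooled regions were present at 8 (88.9%, against 47.6% of all protein-coding genes). atp-1, for the alpha subunit of the catalytic head (WBGene00010419, I 12652277 to 12654655, plus strand), had a pooled signal of 159.7 at rank 602, with 101.4 (rank 1066) in replicate 1 and 55.0 (rank 374) in replicate 2. It was the only one of the 10 outside the highest 906 of replicate 1. Its summit lay 5 bp past the start in the 5′ untranslated region, 195 bp from the start of mcrs-1.

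atp-5 encodes subunit d of the peripheral stalk (WBGene00007385, V 11122901 to 11123867, minus strand). Its pooled signal was 155.2 at rank 650, and the replicates gave 116.4 (rank 673) and 31.5 (rank 3532). The summit at V 11124129 lay 262 bp upstream, inside no gene and 57 bp from the start of lmtr-3. atp-4 encodes coupling factor 6 (WBGene00020275, V 6426246 to 6427112, minus strand) and had 149.9 at rank 726, with 115.5 (rank 689) and 34.2 (rank 2511). Its summit at V 6427029 was 83 bp past the start in the coding sequence. Both genes were among the highest 906 regions of replicate 1 and not of replicate 2.

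The subunit g and subunit b genes each come as a pair. asg-1 had 108.8 (rank 2394) in the pooled list, 62.1 (rank 7859) in replicate 1 and 41.7 (rank 1040) in replicate 2, at a summit it shares with mrps-15, a mitochondrial ribosomal protein gene whose start is 454 bp away. asg-2, on chromosome X, had 56.9 (rank 23392), 39.2 and 16.7. asb-2 had 73.8 (rank 11323), 47.9 and 20.8. asb-1, the form expressed in the germline, had 55.9 (rank 24319), 41.1 and 17.6. In both pairs 1 gene was above the other in all 3 lists, and none of the 4 genes had an IDR summit. atp-2, for the catalytic beta subunit, had 74.3 (rank 11087), and atp-3 only a replicate 2 region of 16.5 (rank 25467).

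A replicate 1 region was present at 40 genes (80.0%, against 47.6% of all genes) and a replicate 2 region at 34 (68.0%, against 46.9%). Among the highest 906 regions of replicate 1 were summits at 9 of the 50 genes, beside 2.56% of all genes. For replicate 2 the count was 5 of 50, beside 2.45%. The 4 complex IV genes with an IDR summit were in both sets, and atp-1 was the fifth in replicate 2. In replicate 2 cyc-1, atp-4 and atp-5 were at ranks 2511 to 3532.

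Spearman's rho between the replicate signals was 0.714 over the 30 genes with a region in both lists, 0.336 over the 21 of these without an IDR summit, and 0.437 over 6607 protein-coding genes. All points share the same 2 libraries. The highest summits of the replicates lay within 200 bp of each other at 19 of the 30 genes and farther apart at 11. A region was present in all 3 lists at 29 genes and in none at 6 (nduf-5, nuo-6, sdhb-1, cox-6B, cox-18 and cox-19). These summit distances and list overlaps were not counted over all protein-coding genes.

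**Figure D2:**
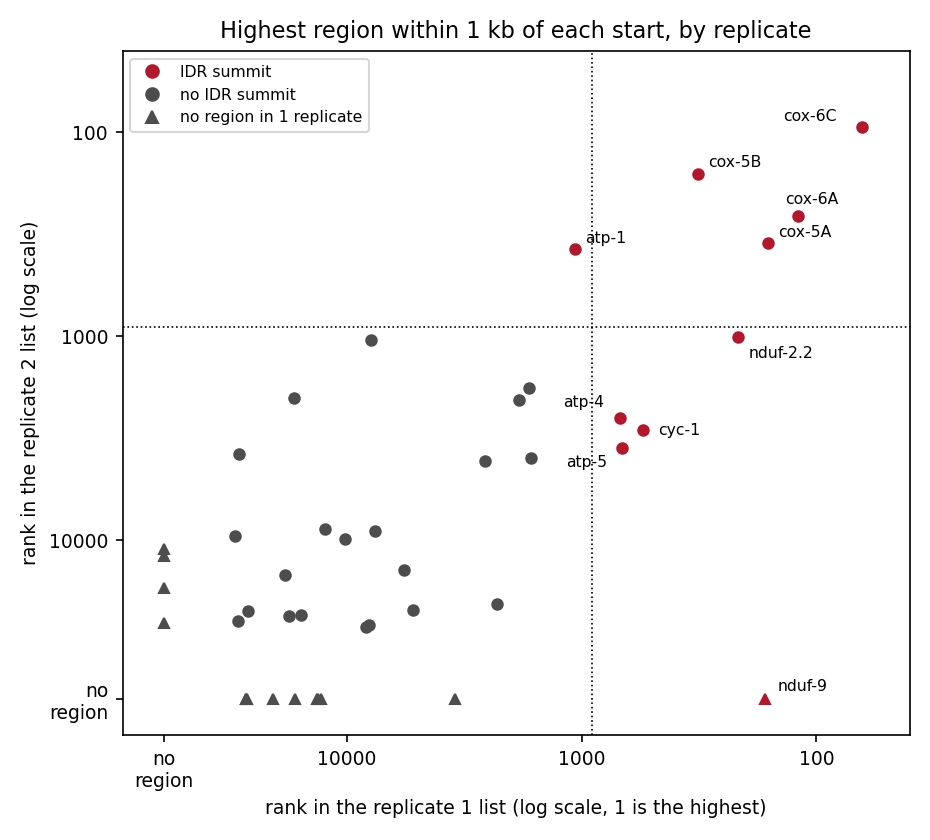
Rank of the highest region within 1 kb of each start in the replicate 1 list (horizontal) and the replicate 2 list (vertical), on log scales with the highest rank at the upper right; dotted lines mark rank 906, triangles genes with a region in 1 replicate only, and the 6 genes with none are not drawn. The 4 complex IV genes stand in the upper right, and nduf-9 lies on the margin of no replicate 2 region.

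Summit positions were set out for the genes above and below the IDR floor. Of the 10 IDR summits, 7 lay upstream of the start and 3 at or past it (atp-1, atp-4 and cyc-1), where 66.6% of all 500 genes with an IDR summit had it upstream. The median distance was 334.5 bp, and 354.5 bp for all 500 genes. Of the 28 genes with a pooled region below the floor, 9 had the summit upstream and 19 at or past the start. The same split was not counted over all protein-coding genes below the floor. The difference in position was not tested.

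The start nearest to the IDR summit belonged to the respiratory gene itself at 7 of the 10 genes. The exceptions were cox-6C, nduf-2.2 and atp-5, where grld-1, dlc-1 and lmtr-3 were nearer. When each summit was counted only for its nearest start, 395 of all 500 protein-coding genes with an IDR summit kept one. Another protein-coding start lay within 1 kb at 5 of the 10, a share that was not counted over the 500. The summit was inside or within 50 bp of a non-coding RNA gene other than a piRNA gene at 4 genes, cox-6C, cox-6A, nduf-9 and nduf-2.2, and at 27.2% of all protein-coding genes with an IDR summit. Which gene, if any, the occupancy concerns was not tested.

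**Figure D3:**
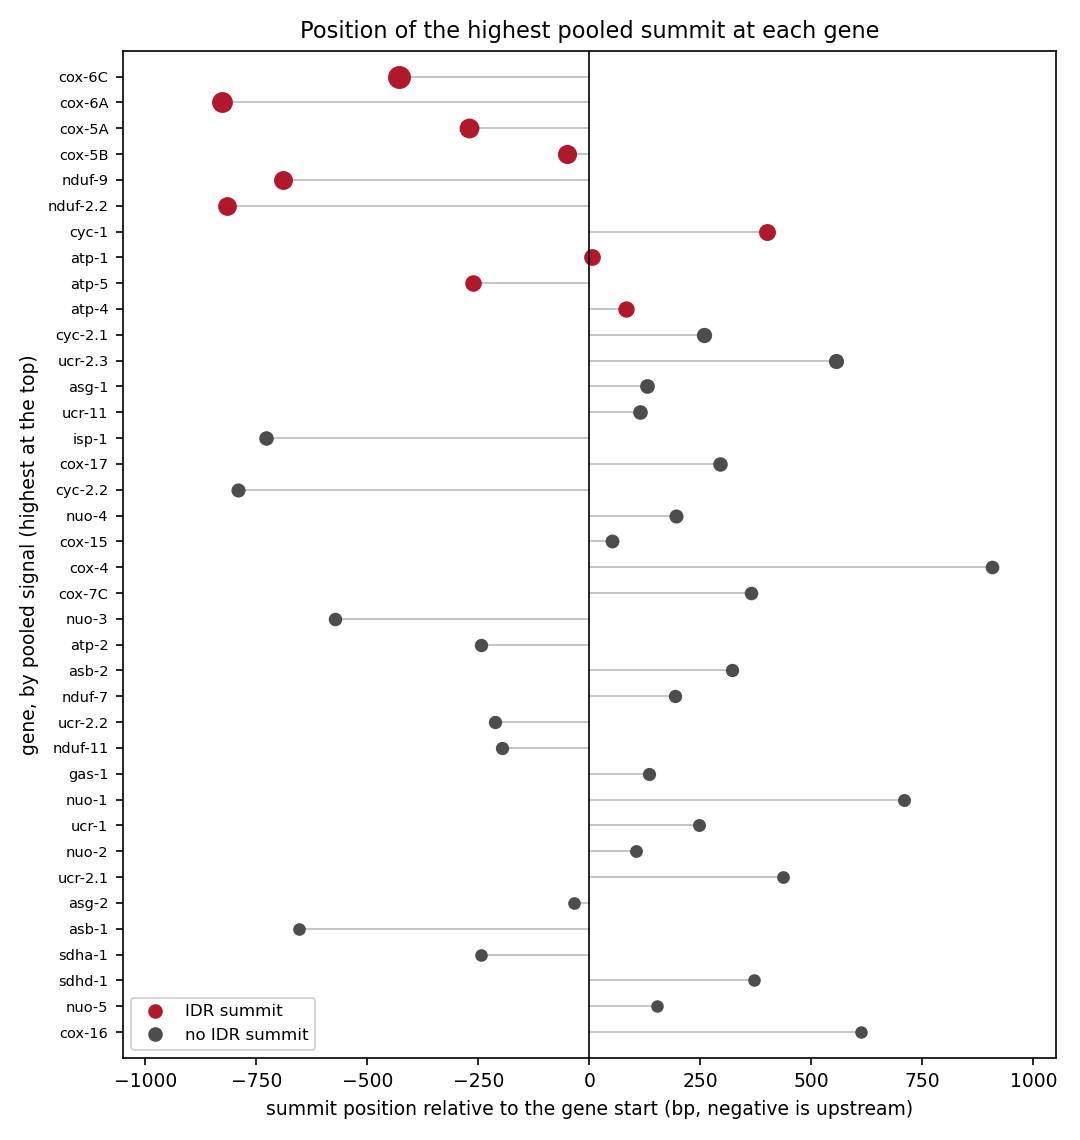
Position of the highest pooled summit relative to the gene start (bp, negative is upstream) for the 38 genes with a pooled region, ordered by signal, with larger points for higher signal and red for IDR peaks. Of the red points 7 lie upstream, and of the 28 grey points 19 lie at or past the start. The split of all protein-coding genes below the IDR floor was not counted.

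Several respiratory genes follow closely behind another gene on the same strand, an arrangement seen in C. elegans operons. A same-strand gene ended at most 500 bp upstream of 17 of the 50 genes (34.0%), against 18.9% of all protein-coding genes. Among the 10 with an IDR summit this held for 2, cyc-1 and atp-4, and among the other 40 for 15. cyc-1 follows C54G4.9 at 458 bp and atp-4 follows alh-4 at 96 bp, and in both the summit lay inside the gene.

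Chromosome I held 15 of the genes and 3 with an IDR summit, II held 6 and 0, III held 12 and 4, IV held 6 and 1, V held 5 and 2, and X held 6 and 0. ZIM-3 acts at the pairing centres of chromosomes I and IV, which held 21 of the 50 genes and 4 of the 10 with an IDR summit. Of all protein-coding genes 30.8% lay there, and of the 500 with an IDR summit 175. No list had a region on the mitochondrial chromosome, which carries 12 protein-coding genes of the same complexes.

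Other nuclear genes of mitochondrial energy metabolism were read in the same way. Of 37 chain and assembly genes outside the name rule, 3 had an IDR summit (8.11%): sco-1, a copper chaperone gene of complex IV, with a pooled signal of 179.3, nduc-2 of complex I with 147.0, and hpo-18, for the epsilon subunit of ATP synthase, with 146.3. The 13 genes of nucleotide carriers and ubiquinone synthesis had none, with signals up to 110.8. Of 15 citrate cycle genes 2 had an IDR summit, dlst-1 with 167.6 and idhg-1 with 144.3. The share was 8.11% in the chain genes outside the name rule and 20.0% in the 50 within it, a difference that was not tested.

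The mitochondrial ribosome had IDR summits at 3 of 70 genes (4.29%), namely mrpl-23 with 281.2 at 997 bp upstream, mrpl-28 with 183.1 and mrpl-15 with 148.1. The 13 protein import genes had none, with signals up to 111.9. The cytosolic ribosome, a reference group of strongly expressed genes, had 23 of 81 (28.4%), led by rpl-3 (648.1), rps-26 (454.1), rpl-15 (358.2) and rpl-27 (328.8). Its median pooled signal was 99.3 over the genes with a region, against 84.7 for the respiratory genes. No expression values were used here, so the part of expression level in these shares was not tested.

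**Figure D4:**
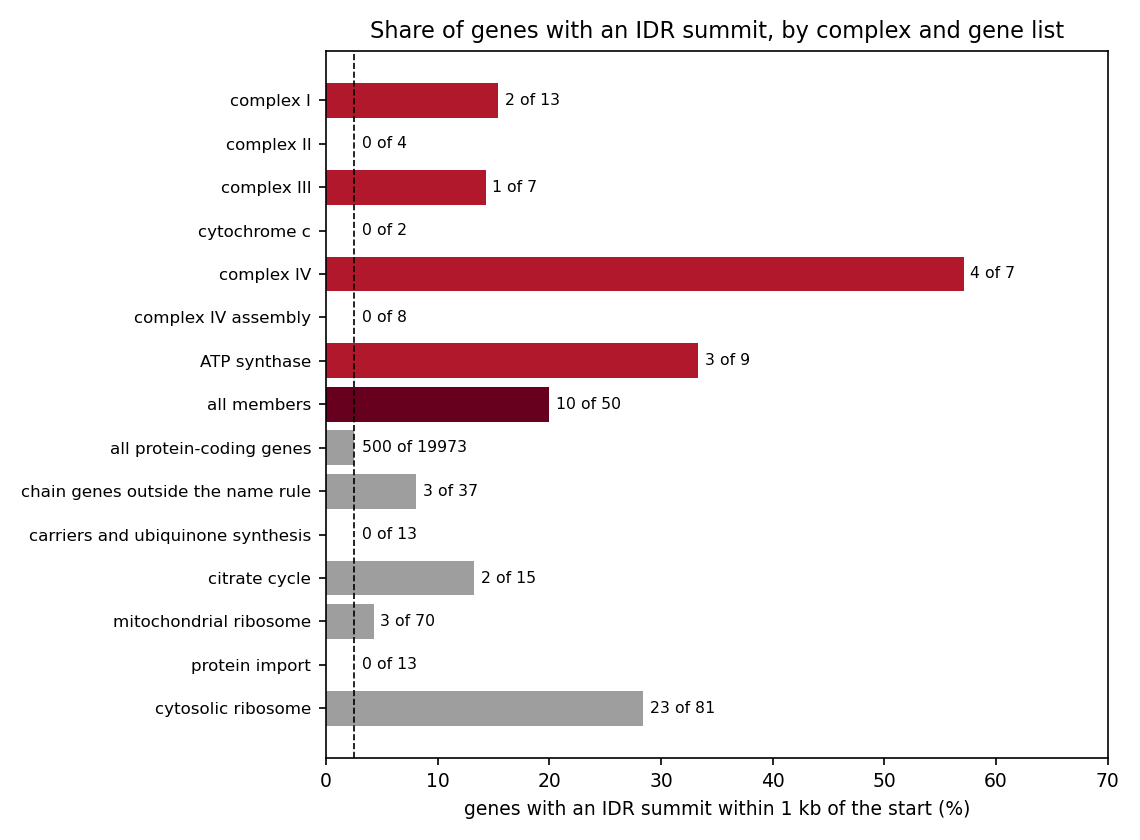
Share of genes (%) with an IDR summit within 1 kb of the start, by complex (red), for all 50 genes (dark red) and for the comparison lists (grey), with the number of genes beside each bar and a dashed line at the 2.5% of all protein-coding genes. In the full IDR list complex IV has the highest share, 4 of 7, and the cytosolic ribosome has 23 of 81. Without summits inside or within 50 bp of non-coding genes, not drawn, complex IV has 2 of 7 and ATP synthase 3 of 9.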

How the data were processed

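ChIP-seq regions of ZIM-3-GFP were available for 2 biological replicates of 1 group. The authors deposited, for each replicate and for pooled reads, a list of 30000 regions with a signal value per region, and an IDR list of 906 peaks, all on ce11 (WBcel235). The aligner, the peak caller and the IDR threshold applied were not given in the sources used here. Per the file descriptions, each list also derives from a further file shared by the replicates, from which a control-normalized signal was made. The ce10 lists were left out.

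Summits were assigned to the 5′ ends of Ensembl release 115 gene records within 1 kb, and each gene took the highest signal. Counts and medians stand beside those of all 19973 genes, and no test was made. The assignment was checked on simulated regions. Alternatives were distances of 500 bp and 2 kb, transcript starts, nearest starts only, regions near small RNA genes left out, assembly genes left out, the upper part of the IDR list and each replicate alone. Python 3.11.15, numpy 2.4.6, pandas 2.3.3 and matplotlib 3.10.9 were used.

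The genes and lists were chosen with earlier results of these data known. The genes named were all 50 of the rule, with full values for those with an IDR summit, the 5 next by pooled signal and the paralog sets, and the others with their rank or as without a region, to which signals were added after the values were seen. In each other list up to 4 genes with an IDR summit were named, by signal. grld-1, dlc-1, lmtr-3 and other neighbours of a summit, and IDR peaks beyond 1 kb, were chosen after the values were seen.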

Additional observations from a re-analysis of the deposited data

How the results depend on the processing

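The count of genes with an IDR summit moved with the replicate and with how a summit is assigned. Using the 906 highest regions of a single replicate gave 5 to 9 genes for the 50, 0 to 2 for complex I, 0 to 1 for complex III, 1 to 2 for ATP synthase, 4 in both cases for complex IV, and a median signal of 24.7 to 61.9 on the replicates' own scales, where all genes had 22.0 and 54.4. The lower value of each range came from replicate 2 alone. Within 500 bp complex I had 0 and all genes 323. Within 2 kb all genes had 849, cytochrome c 1 and the complex IV assembly genes 1, and the 50 had 13. Counting only the nearest start left 7 of the 50, against 1.98% of all genes, and 1 of complex I. The higher-signal part of the IDR peaks (the upper 50%) left 6 of the 50, 0 of complex III, 0 of ATP synthase and 282 of all genes. An alternative chosen after seeing the data left out summits in or within 50 bp of non-coding genes. It counted 6 of the 50, against 1.84% of all genes. Complex I then had 0, complex IV 2 and ATP synthase 3. Leaving out summits near tRNA, snoRNA and snRNA genes gave 9 of the 50, against 1.92% of all genes. Using transcript starts gave 11, against 2.84%. The causes were not tested.

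No paired analysis was possible because all samples belong to 1 group. With 2 libraries, and no read counts or control library analysed here, an absent region says only that none of the 30000 listed regions lies there.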
